A study of Mus musculus with 12 samples.

Results

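The SLC25 family holds most of the carriers that move metabolites across the inner mitochondrial membrane. Its members measured in mouse skeletal muscle were taken as every probe set whose only gene symbol in the probe annotation was Slc25a followed by a number, leaving out Slc25a1, the citrate carrier, and Slc25a20, the carnitine and acylcarnitine carrier. This gave 90 of 45098 probe sets and, with the probe set of the highest mean signal taken for each gene, 42 of 18193 genes. The rule itself uses no measured difference between the groups, but it was set with earlier results of these data known. Slc25a21 and Slc25a43 were not analysed here. The samples were 12 Affymetrix arrays of total RNA from skeletal muscle of C57Bl/6 mice, 4 arrays in each of 3 groups. All mice ate standard chow, with 13% of calories from fat, up to 6 weeks of age. The chow group stayed on it, and the remaining mice were switched to a high-fat diet, of which fat supplied 46% of calories. This lasted 5 days in the second group and 42 days in the third. The labels give no sex, no named muscle, no age at sampling and no batch, and they do not say whether the replicates were separate animals, so p-values measure only the spread between these samples. Growth over the longer feeding time and the diet cannot be told apart between the 5-day and 42-day groups, nor between the chow group and either of them if its mice were sampled at another age.

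A typical SLC25 carrier is a small protein encoded in the nucleus, made in the cytosol and inserted into the inner mitochondrial membrane, where it usually exchanges a solute on one side for another on the opposite side. A few members sit elsewhere, in the outer mitochondrial membrane or in peroxisomes. In muscle the most abundant members serve ATP synthesis, by exchanging ADP for ATP and importing phosphate. Others carry reducing equivalents from cytosolic NADH into mitochondria through the malate-aspartate shuttle, or supply amino acids, nucleotides, cofactors and iron to the matrix.

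Signals are log2 values summarised by robust multi-array averaging (RMA), a method that combines the probes of a probe set after normalizing the arrays to each other. Array medians lay at 7.65 to 7.69 in the chow group, 7.60 to 7.63 after 5 days and 7.66 to 7.70 after 42 days, and the number of arrays limits the precision. Skeletal muscle markers were at the top of the scale on every array: the log2 of their summed signal lay between 18.51 and 18.55 over all 12 arrays, and 0 of 10 changed in either diet comparison (1 of 10 at an unadjusted p under 0.05 in each). Differences can be compressed there, so this stable sum says little. Of the 10, 2 were higher and 8 lower at 5 days, and 6 higher and 4 lower at 42 days. Mb (mean 14.85) was higher without overlap at both times, by 0.14 and 0.16, without passing the test. Markers of other cell types did move. The summed adipocyte markers (10 of 13 measured) lay at 15.54 to 16.16 on chow, 15.25 to 15.49 after 5 days and 15.38 to 15.63 after 42 days, and 4 fell at 5 days and 1 at 42 days. Car3 (mean 14.59) and Fabp4 (13.78) were the brightest of the 10 and weigh most in this sum. The summed brown adipocyte markers (3 of 3) lay at 9.09 to 11.59 on chow, 8.86 to 9.10 after 5 days and 8.79 to 10.32 after 42 days, and 1 fell at 5 days. The summed liver markers (8 of 8) lay at 10.89 to 11.45 on chow, 10.62 to 12.35 after 5 days and 12.14 to 13.49 after 42 days, and 6 rose at 42 days. The summed tendon markers (6 of 6) lay at 12.48 to 12.80, 12.59 to 13.27 and 13.27 to 13.65, and 5 rose at 42 days. In whole tissue, fewer cells of a type and less RNA per cell cannot be told apart.

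Promoter windows were read for the members from the RefSeq table of assembly GRCm38.p6, from 250 bases before to 50 bases after the annotated start, and 32 of the 42 members had one, including 6 of the 7 that passed the test in some comparison (Slc25a37 had none). Matches to 6 motifs were sought on both strands: the NRF1 core GCATGCGC, the estrogen-related receptor site AAGGTCA, the E-box CACGTG, the GC box GGGCGG, the cAMP response element TGACGTCA and the TATA box TATAAA. Genes can have several windows, and a gene was counted where any of its windows held the motif. The GC box was found for 27 of the 32 members (84.4%), against 38.2% of 27025 genes with a window, and the E-box for 6 of 32 (18.8%), against 8.09%. Those 27025 genes were not limited to the genes on the arrays or matched for base composition, so these contrasts are not a measured trait of the family. Among the 6 members that passed, the E-box was found for Slc25a13, Slc25a33 and Slc25a15 (in 1 of the 2 windows of the last) and the GC box for 5, every one except Slc25a13. The NRF1 core (3.05% of genes) and the cAMP response element (2.03%) were found for 2 members each, the estrogen-related receptor site (5.38%) and the TATA box (15.7%) for 1 each, and these 4 motifs had no match for the 6 members that passed. The windows of 4 of them are shown, because Slc25a11 and Slc25a28 moved in opposite directions after 42 days, and Slc25a13 and Slc25a33 in opposite directions between 5 and 42 days. They are on the minus strand, at chr11:70646990-70647289 for Slc25a11 (57% G and C), chr19:43674832-43675131 for Slc25a28 (60%), chr6:6217124-6217423 for Slc25a13 (65%) and chr4:149774218-149774517 for Slc25a33 (66%), against a median of 52.7% over all windows. Sequences run 5′ to 3′, and capitals mark matches to the GC box or the E-box on either strand. A match is a run of letters and not a measured binding site.
Slc25a11 promoter: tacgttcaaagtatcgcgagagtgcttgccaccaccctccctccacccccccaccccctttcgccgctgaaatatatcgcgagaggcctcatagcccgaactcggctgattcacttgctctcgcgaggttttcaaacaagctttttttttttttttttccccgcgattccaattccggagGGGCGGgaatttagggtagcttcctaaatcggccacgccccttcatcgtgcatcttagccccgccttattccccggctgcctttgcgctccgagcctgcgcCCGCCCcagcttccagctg
Slc25a28 promoter: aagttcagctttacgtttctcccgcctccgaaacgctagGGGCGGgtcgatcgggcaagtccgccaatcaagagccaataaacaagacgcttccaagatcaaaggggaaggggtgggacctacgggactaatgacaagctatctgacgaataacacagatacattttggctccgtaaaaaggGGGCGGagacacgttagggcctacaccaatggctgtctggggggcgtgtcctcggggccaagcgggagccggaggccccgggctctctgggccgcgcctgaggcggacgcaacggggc
Slc25a13 promoter: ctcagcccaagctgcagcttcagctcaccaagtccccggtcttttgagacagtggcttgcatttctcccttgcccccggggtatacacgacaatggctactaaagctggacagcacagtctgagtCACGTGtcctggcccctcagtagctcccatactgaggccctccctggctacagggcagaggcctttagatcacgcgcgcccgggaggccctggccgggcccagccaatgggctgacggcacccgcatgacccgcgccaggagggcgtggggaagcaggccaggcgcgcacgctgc
Slc25a33 promoter: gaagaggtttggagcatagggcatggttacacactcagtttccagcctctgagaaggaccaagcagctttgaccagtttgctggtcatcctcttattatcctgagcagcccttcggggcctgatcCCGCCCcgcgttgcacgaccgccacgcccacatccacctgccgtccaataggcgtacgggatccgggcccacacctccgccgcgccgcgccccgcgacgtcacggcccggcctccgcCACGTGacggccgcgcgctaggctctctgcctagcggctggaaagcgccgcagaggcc

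Read by the brightest probe set of each gene, few of the 42 carriers changed between the groups, and those that did moved by less than 1.3-fold. A gene was taken to have risen or fallen where its Benjamini-Hochberg adjusted p from limma, over all 18193 genes, was under 0.05. After 5 days of high-fat diet 0 of 42 members rose (without adjustment 4 had a p under 0.05 and a higher value) and 1 fell, Slc25a45, whose substrate is not settled. This is 2.38% of the members, beside 3.8% of all genes called (1.6% higher and 2.2% lower). After 42 days 1 rose, Slc25a11, the oxoglutarate/malate carrier, and 2 fell, Slc25a37 and Slc25a28, the mitochondrial iron importers. That is 7.14% of the members, beside 5.56% of all genes (2.12% higher and 3.44% lower). Between 5 and 42 days of the diet, 1 rose, Slc25a13, an aspartate/glutamate carrier, and 3 fell, Slc25a37, the ornithine carrier Slc25a15 and the pyrimidine nucleotide carrier Slc25a33. That is 9.52% of the members, beside 8.52% of all genes (2.75% higher and 5.77% lower). Unadjusted limma p-values under 0.05 were common over all genes: 24.8% at 5 days, 21.9% at 42 days and 31% between the diet groups. Among the members the shares were 16.7%, 16.7% and 31%. The test for any difference between the 3 groups passed for 6 of 42 members (14.3%), Slc25a37, Slc25a11, Slc25a15, Slc25a13, Slc25a45 and Slc25a28, beside 12.5% of all genes. The calls over all genes depended on scaling. At 5 days 42.1% of the genes called were higher; with arrays centred on their median 6.11% of genes were called and 78.8% of these were higher, and with quantile normalization 0.879% and 57.5%. Between the diet groups 32.3% of the calls were higher, against 20.5% and 44.7% under those scalings, with 11% and 1.97% of genes called. At 42 days against chow 38.2% of the calls were higher, against 54.4% and 51.2%.

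Groups without overlap gave the same picture. At 5 days against chow the 4 arrays of each group did not overlap for 4 members (9.52%, beside 11.8% of all genes), at 42 days against chow for 7 (16.7%, beside 13.9%) and at 42 against 5 days for 10 (23.8%, beside 20.4%). The median log2 difference over the members was 0.024 at 5 days and 0.010 at 42 days against chow, and 0.0068 between the diet groups, beside -0.010, -0.013 and 0.0078 over all genes. The median size of the difference, taken without its sign, was 0.077, 0.071 and 0.11, beside 0.087, 0.076 and 0.10 over all genes. The members spanned -0.26 to 0.33 at 5 days and -0.26 to 0.25 at 42 days. The precision bounds what could have been missed only in the signal of the probe sets used. There the 95% interval of the difference lay inside a 1.5-fold change in either direction for 41 of 42 members at 5 days. It did so for 42 at 42 days and 41 between the diet groups, with Slc25a30 the exception at 5 days and between the diet groups. A larger change in RNA could be missed where the signal is compressed near the top of the scale or lies near background. Other probe sets are not covered: another of Slc25a25 was -0.53 ± 0.099 from chow at 42 days. The interval reached 0.14 to each side of the estimate at the median, and from 0.091 to 0.45 over the members.

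**Figure D1:**
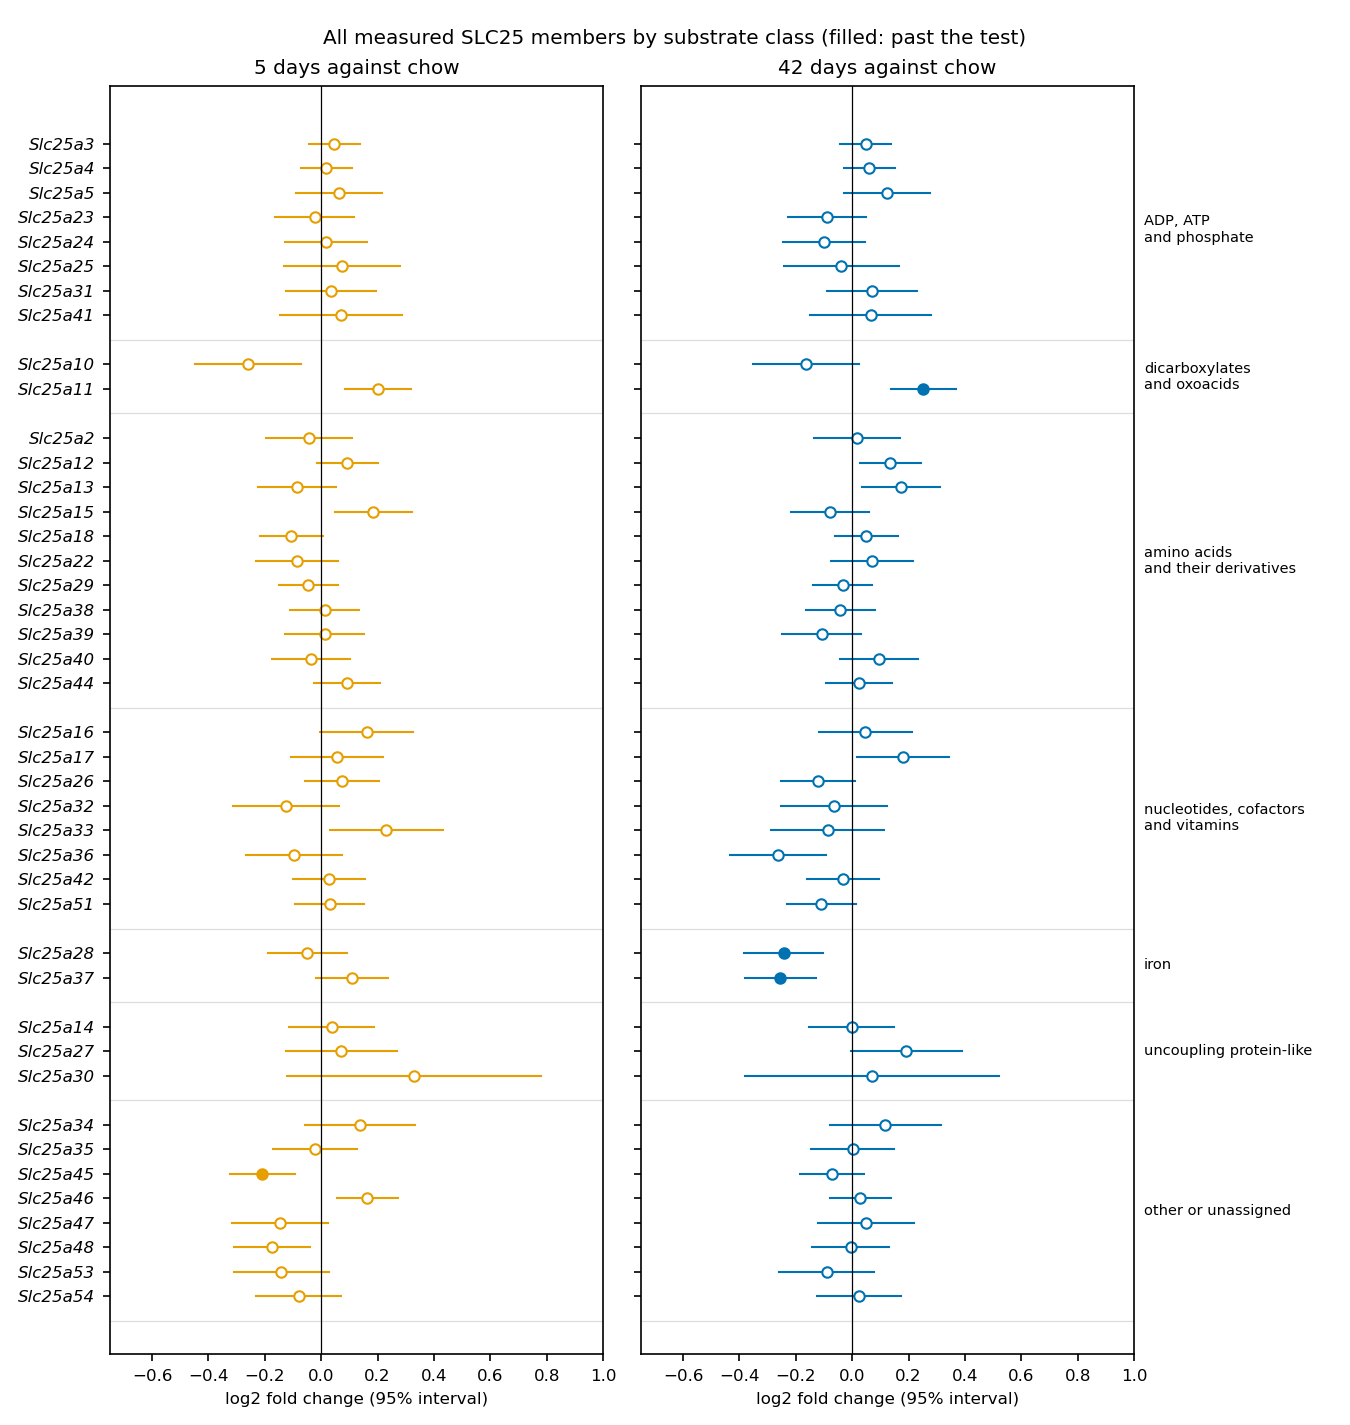
The log2 fold change of each of the 42 members (circles, with 95% intervals from limma) is plotted by substrate class at 5 days (left) and 42 days (right) of high-fat diet against chow, 4 arrays a group. Filled circles mark the members that passed the test, 1 at 5 days and 3 at 42 days; the widest intervals are those of Slc25a30.

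The phosphate carrier and the muscle and general ADP/ATP exchangers were slightly higher in both diet groups, and none of these differences passed the test. Slc25a4, adenine nucleotide translocase 1, exchanges ADP for ATP in heart and muscle. It lay at 15.03, 15.02, 14.968 and 14.998 on chow, at 15.03, 15.02, 15.03 and 15.01 after 5 days and at 15.07, 15.03, 15.07 and 15.08 after 42 days. Every 42-day array lay above every array of the other groups, yet the difference from chow was only 0.060 ± 0.043 (SE, log2; adjusted p = 0.448 by limma), with a 95% interval of -0.031 to 0.15. The lowest of the array maxima was 15.41, so this probe set was close to the top of the scale, where differences can be compressed.

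Slc25a3, the phosphate carrier, lay at 14.50, 14.49, 14.47 and 14.43 on chow, 14.50, 14.54, 14.51 and 14.53 after 5 days and 14.54, 14.51, 14.51 and 14.53 after 42 days. Both diet groups lay just above the chow group without overlap, by 0.047 ± 0.043 at 5 days (adjusted p = 0.511) and 0.048 ± 0.043 at 42 days (adjusted p = 0.561). Slc25a5, adenine nucleotide translocase 2, the exchanger of growing cells, lay at 11.48, 11.60, 11.54 and 11.71 on chow, 11.51, 11.66, 11.79 and 11.63 after 5 days and 11.56, 11.72, 11.73 and 11.81 after 42 days. Its groups overlapped, and it was 0.065 ± 0.072 higher at 5 days (adjusted p = 0.596) and 0.12 ± 0.072 higher at 42 days (adjusted p = 0.347). Not all of these signs were stable: Slc25a5 at 5 days turned just below 0 after quantile normalization, and Slc25a3 was -0.015 and -0.066 from chow at 5 and 42 days when its probe sets were averaged. With the most variable probe set of each gene, the values at 42 days were -0.12 for Slc25a4, -0.18 for Slc25a3 and -0.042 for Slc25a5, and the median of the whole ADP, ATP and phosphate class was -0.066. The remaining members of this class are the calcium-regulated ATP-Mg/phosphate carriers Slc25a23, Slc25a24 and Slc25a25, their relative Slc25a41 and the testis translocase Slc25a31. Over the 8 members, 7 were higher and 1 lower at 5 days (median 0.041) and 5 higher and 3 lower at 42 days (median 0.054). None of the 8 passed in any of the 3 limma comparisons, and none had an unadjusted p under 0.05.

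The malate-aspartate shuttle carries the electrons of cytosolic NADH into mitochondria, with the oxoglutarate/malate carrier Slc25a11 and the aspartate/glutamate carriers Slc25a12 and Slc25a13 as its membrane steps. Slc25a11 rose after 42 days, Slc25a12 was slightly higher without passing, and Slc25a13 had its lowest group mean at 5 days and its highest at 42 days. Slc25a11 lay at 12.61, 12.52, 12.52 and 12.37 on chow, at 12.67, 12.75, 12.70 and 12.71 after 5 days and at 12.75, 12.71, 12.76 and 12.82 after 42 days. Every array of the diet groups lay above every chow array. The rise at 42 days was 0.25 ± 0.055 (SE; 1.19-fold, 95% interval 0.14 to 0.37, adjusted p = 0.0203). At 5 days it was 0.20 ± 0.055 higher (1.15-fold, adjusted p = 0.0526), just outside the threshold, and between the diet groups it differed by 0.051 ± 0.055 (adjusted p = 0.543). The 42-day rise no longer passed without chow replicate 3 (adjusted p = 0.0523), without 42-day replicate 4 (0.0659), or with the adipocyte markers as a covariate, where it was 0.21 (adjusted p = 0.121). That covariate, here and below, is the mean of the markers' log2 signals on each array and not their summed level.

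Slc25a12, aralar, the aspartate/glutamate carrier of excitable tissues, lay at 13.28, 13.20, 13.21 and 13.16 on chow, at 13.27, 13.41, 13.24 and 13.30 after 5 days and at 13.35, 13.29, 13.38 and 13.38 after 42 days. The 42-day arrays lay above all chow arrays, by 0.14 ± 0.051 (1.10-fold, adjusted p = 0.136), and the 5-day arrays, which overlapped both, were 0.093 ± 0.051 higher than chow (adjusted p = 0.272). Its other probe sets did not follow: at 42 days they were lower than chow by -0.042 ± 0.052 and -0.22 ± 0.078 (adjusted p over all probe sets 0.672 and 0.0894).

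Slc25a13, citrin, is the aspartate/glutamate carrier known from liver, and its probe set was dim in muscle. It lay at 7.86, 7.81, 7.95 and 7.73 on chow, at 7.80, 7.73, 7.64 and 7.83 after 5 days and at 8.09, 8.10, 7.89 and 7.96 after 42 days. The 5-day and 42-day groups did not overlap, and both overlapped chow. From 5 to 42 days it rose by 0.26 ± 0.065 (1.2-fold, 95% interval 0.12 to 0.40, adjusted p = 0.0303), while against chow it was -0.086 ± 0.065 at 5 days (adjusted p = 0.430) and 0.17 ± 0.065 at 42 days (adjusted p = 0.132). The rise did not pass without 5-day replicate 2 (adjusted p = 0.0860), 5-day replicate 3 (0.0746) or 42-day replicates 1, 2 or 4 (0.10, 0.080 and 0.0508), nor after quantile normalization (0.0965) or cyclic loess (0.0986). The liver markers rose between the same groups (6 of 8), from a summed level of 10.62 to 12.35 after 5 days to 12.14 to 13.49 after 42 days, and their part in the Slc25a13 value was not tested.

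**Figure D2:**
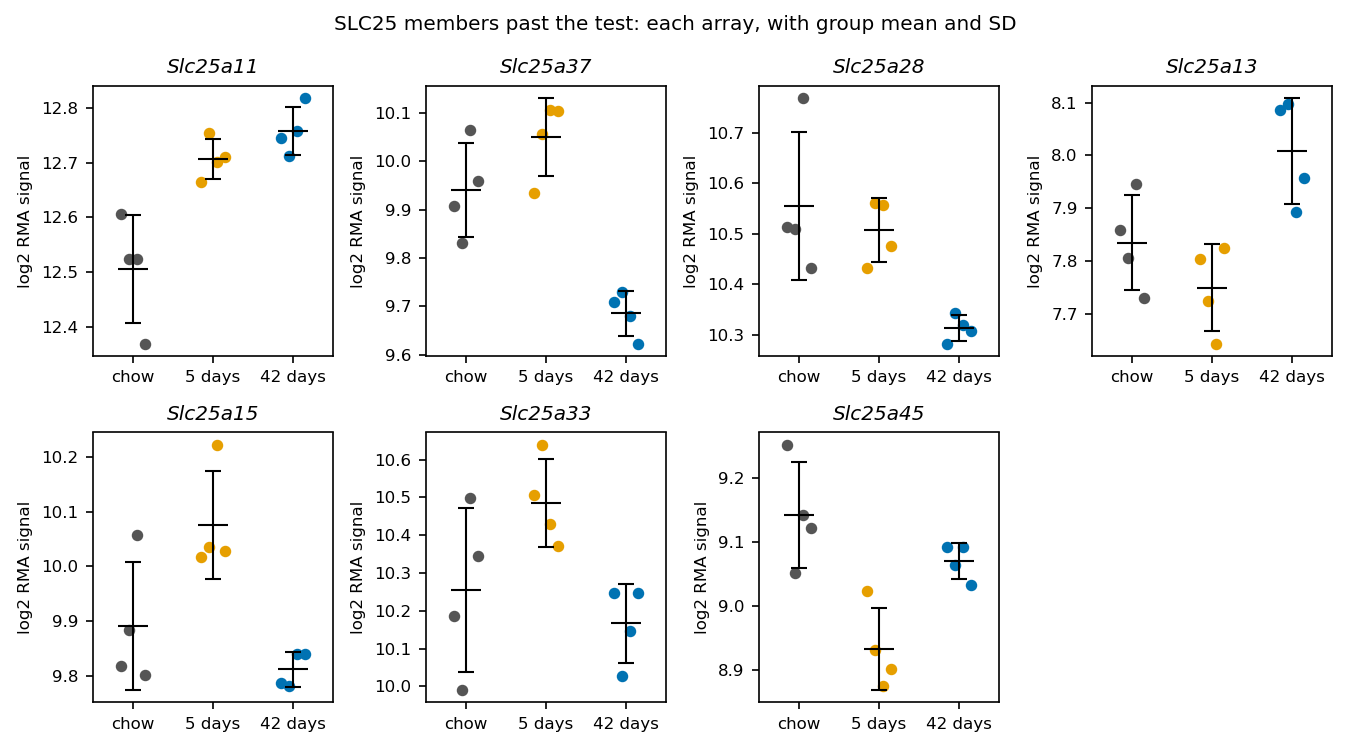
The log2 RMA signal on each of the 12 arrays (points) with the group mean and SD (black) is shown for the 7 members that passed the test in some comparison. Slc25a11 was above chow in both diet groups, while Slc25a37 and Slc25a28 were lowest after 42 days.

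Both mitochondrial iron importers, the mitoferrins, fell after 42 days. They bring ferrous iron into the matrix for haem and iron-sulphur cluster assembly, Slc25a37 (mitoferrin 1) chiefly in erythroid cells and Slc25a28 (mitoferrin 2) in many tissues. Slc25a37 lay at 9.91, 9.83, 10.06 and 9.96 on chow, at 9.93, 10.06, 10.11 and 10.10 after 5 days and at 9.71, 9.73, 9.68 and 9.62 after 42 days. Each 42-day array was lower than any other array. It fell by 0.25 ± 0.059 from chow (1.19-fold, 95% interval -0.38 to -0.13, adjusted p = 0.0263) and by 0.36 ± 0.059 from 5 days (1.29-fold, 95% interval -0.49 to -0.24, adjusted p = 0.0150), the smallest adjusted p of any member in the 3 comparisons. At 5 days it was 0.11 ± 0.059 above chow, with overlapping arrays (adjusted p = 0.265).

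The fall of Slc25a37 from 5 to 42 days passed under all 13 alternative settings, with adjusted p from 0.00388 to 0.0391, and was lost without 5-day replicate 2 (0.0572) or 42-day replicate 1 (0.0592). The gene has a single probe set, so settings that change the probe set left its own values unchanged. The 0.1 threshold had to pass. The fall from chow was lost without chow replicate 3 or 4 (0.0816 and 0.0551), without any of the 42-day replicates (0.0566, 0.0514, 0.0564 and 0.0776 for replicates 1 to 4) and with the adipocyte marker covariate (-0.23, adjusted p = 0.127). The summed level of the erythroid markers (6 of 7 measured) was 10.16 to 10.31 on chow, 10.10 to 10.33 after 5 days and 10.26 to 10.37 after 42 days. None of the 6 passed the test against chow (by limma, 0 at 5 days and 1 at 42 days, a higher value, had an unadjusted p under 0.05). From 5 to 42 days 5 were higher and 1 lower. None passed there, and 2, both higher, had an unadjusted limma p under 0.05. The part of erythroid cells in the Slc25a37 values was not tested.

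Slc25a28 lay at 10.51, 10.51, 10.77 and 10.43 on chow, at 10.43, 10.56, 10.56 and 10.48 after 5 days and at 10.28, 10.34, 10.32 and 10.31 after 42 days. The 42-day arrays were again below all others, and chow replicate 3 was the highest of the 12. It fell by 0.24 ± 0.066 from chow (1.18-fold, 95% interval -0.38 to -0.10, adjusted p = 0.0449) and was -0.19 ± 0.066 from 5 days (adjusted p = 0.0715). The fall from chow passed only without chow replicate 4 or 5-day replicate 3 among the 12 fits that each left out 1 array; in the other 10 the adjusted p was 0.0509 to 0.108, and without chow replicate 3 the value was -0.17. It was also lost with arrays centred on their median (0.0702), with 8 arrays fitted (0.0705) and with the adipocyte covariate (0.140), where the values were -0.22, -0.24 and -0.25, close to the one above. Each mitoferrin was read by a single probe set.

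Amino acid carriers other than the shuttle members gave 1 fall, and only between the diet groups. Slc25a15, ornithine carrier 1, which links the mitochondrial and cytosolic steps of the urea cycle in liver, lay at 9.82, 9.88, 10.06 and 9.80 on chow, at 10.02, 10.04, 10.22 and 10.03 after 5 days and at 9.79, 9.78, 9.84 and 9.84 after 42 days. The 5-day arrays lay above all 42-day arrays, and chow replicate 3 reached into the 5-day range. It fell by 0.26 ± 0.064 from 5 to 42 days (1.2-fold, 95% interval -0.40 to -0.13, adjusted p = 0.0284), after 0.19 ± 0.064 above chow at 5 days (adjusted p = 0.10) and -0.079 ± 0.064 at 42 days (adjusted p = 0.521). Its other, dimmer probe set went the opposite way, 0.19 ± 0.077 higher at 42 than at 5 days (adjusted p over all probe sets 0.120) and 0.33 ± 0.077 above chow at 42 days (0.0130), so the direction depends on which is read. The mean of both probe sets was -0.037 (adjusted p = 0.632), and the fall was also lost after quantile normalization (0.143), after cyclic loess (0.126) and without 5-day replicates 2 or 3 or 42-day replicates 1, 2 or 4 (0.0514 to 0.0853).

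The glutamate carriers Slc25a18 and Slc25a22 were lowest at 5 days: Slc25a18 was 0.16 higher at 42 than at 5 days without overlap (adjusted p = 0.0683) and Slc25a22 0.16 higher with overlap (adjusted p = 0.136). The glycine carrier Slc25a38, which serves haem synthesis, stayed within 0.056 of 0 in all 3 comparisons. Slc25a44, the branched-chain amino acid carrier, was 0.090 above chow at 5 days (adjusted p = 0.320) and 0.024 at 42 days (0.850). Slc25a39, the glutathione importer, was 0.013 and -0.11 from chow (0.926 and 0.365), and its paralogue Slc25a40 was -0.037 and 0.095 (0.753 and 0.433). Slc25a29, a basic amino acid carrier, and Slc25a2, ornithine carrier 2, stayed within 0.063 of 0. Slc25a2 is one of the dim members, below the lower quartile of all probe set signals, averaged over the arrays (6.49). Over the 11 members of the class, 5 were higher and 6 lower at 5 days (median -0.037) and 7 higher and 4 lower at 42 days (median 0.024). None of the 11 passed against chow, and 1 at 5 days and 2 at 42 days had an unadjusted limma p under 0.05. These are 9.09% and 18.2% of the class, beside 24.8% and 21.9% of all genes.

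Most carriers of nucleotides, cofactors and vitamins were lower at 42 days. Of the 8, 6 were higher than chow at 5 days (median 0.043), and 6 were lower at 42 days (median -0.077), and from 5 to 42 days 6 were lower (median -0.13). Only Slc25a33 passed. Against chow 0 of 8 did at either time, with 1 at 5 days and 2 at 42 days at an unadjusted p under 0.05 by limma. These are 12.5% and 25% of the class, beside 24.8% and 21.9% of all genes. At 42 days the class median turned positive when each gene's probe sets were averaged (0.016) and when its most variable probe set was read (0.068), so the downward direction rests on the brightest probe sets.

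Slc25a33, pyrimidine nucleotide carrier 1, which supplies pyrimidine nucleotides for mitochondrial DNA and RNA, lay at 10.19, 9.99, 10.50 and 10.35 on chow, at 10.51, 10.64, 10.43 and 10.37 after 5 days and at 10.25, 10.03, 10.15 and 10.25 after 42 days. The chow arrays spread across both other groups, which did not overlap each other. From 5 to 42 days it fell by 0.32 ± 0.095 (1.25-fold, 95% interval -0.52 to -0.12, adjusted p = 0.0499), after 0.23 ± 0.095 above chow at 5 days (adjusted p = 0.150) and -0.088 ± 0.095 at 42 days (0.645). This call sat at the threshold. It held without chow replicate 2 or 3 and was lost without any other single array (adjusted p 0.0516 to 0.136). It passed under 7 of 13 alternatives, including the 0.1 threshold, which it had to pass. The value was -0.21 (adjusted p = 0.192) after both quantile normalization and cyclic loess, and the adjusted p was 0.0594 with a replicate block.

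Slc25a36, pyrimidine nucleotide carrier 2, lay at 10.34, 10.58, 10.71 and 10.47 on chow, at 10.38, 10.41, 10.59 and 10.33 after 5 days and at 10.13, 10.28, 10.34 and 10.30 after 42 days. It was the lowest member at 42 days against chow, at -0.26 ± 0.080 (1.2-fold, adjusted p = 0.0698), with the groups just apart. A dimmer probe set of the same gene rose by 0.32 ± 0.060 in that comparison (adjusted p over all probe sets 0.00448), so the direction depends on which is read. Slc25a26, the S-adenosylmethionine carrier, was -0.20 ± 0.062 between the diet groups without overlap (adjusted p = 0.0598). Its other probe set was -0.053 ± 0.075 in that comparison (adjusted p over all probe sets 0.662). At 42 days against chow the other probe set was 0.13 ± 0.075 (0.330), where the one used was -0.12. The NAD carrier Slc25a51 was 0.030 and -0.11 from chow at 5 and 42 days (0.780 and 0.296), the coenzyme A carrier Slc25a42 was 0.029 and -0.033 (0.800 and 0.806), and the peroxisomal cofactor carrier Slc25a17 was 0.056 and 0.18 (0.670 and 0.183). Slc25a16, a candidate coenzyme A carrier, was 0.16 above chow at 5 days (adjusted p = 0.208), and the folate and FAD carrier Slc25a32 was -0.13 (0.395).

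The dicarboxylate carrier Slc25a10 exchanges malate or succinate for phosphate and is best known from liver and white fat. It lay at 9.51, 9.33, 9.42 and 9.79 on chow, at 9.21, 9.25, 9.45 and 9.10 after 5 days and at 9.36, 9.35, 9.34 and 9.34 after 42 days. Chow replicate 4 was the highest array and the 42-day arrays lay close together inside the chow range. The difference was -0.26 ± 0.088 at 5 days (1.2-fold, adjusted p = 0.0957) and -0.16 ± 0.088 at 42 days (adjusted p = 0.299). Its dimmer probe set passed over all probe sets at 5 days, at -0.31 ± 0.062 (adjusted p = 0.0270). At 42 days the dimmer probe set was -0.00525 ± 0.062 from chow (0.974). The summed adipocyte markers were lower after 5 days than on every chow array, and their part in the 5-day values was not tested.

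The uncoupling protein-like carriers gave no call. Slc25a14, Slc25a27 and Slc25a30 resemble the uncoupling proteins in sequence. Slc25a30 varied most of all members: it lay at 10.61, 10.54, 11.15 and 11.12 on chow, 10.95, 10.54, 11.67 and 11.58 after 5 days and 10.65, 11.07, 11.05 and 10.93 after 42 days. The 5-day arrays alone spanned more than the difference between groups, which was 0.33 ± 0.21 (adjusted p = 0.347). Slc25a27 was 0.072 and 0.19 above chow at 5 and 42 days (adjusted p = 0.654 and 0.241) and Slc25a14 0.038 and -0.0015 (0.770 and 0.997). By limma 0 of the 3 had an unadjusted p under 0.05 in any comparison.

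Among the 8 members of other or unassigned function, 6 were lower than chow at 5 days, with a median of -0.11, and Slc25a45 fell. The median was -0.056 with probe sets averaged, -0.051 with the most variable probe set, -0.061 after quantile normalization and -0.057 after cyclic loess. Slc25a45 lay at 9.25, 9.05, 9.14 and 9.12 on chow, at 9.02, 8.93, 8.88 and 8.90 after 5 days and at 9.09, 9.06, 9.09 and 9.03 after 42 days. The 5-day arrays were lower than all others. It fell by 0.21 ± 0.054 (1.16-fold, 95% interval -0.32 to -0.094, adjusted p = 0.0466), and at 42 days was -0.072 ± 0.054 from chow (adjusted p = 0.479). The call held without chow replicate 2 or 5-day replicate 1 and was lost without any other single array (0.0575 to 0.119). It passed under 5 of 13 alternatives, including the 0.1 threshold, which it had to pass. With the adipocyte marker covariate it was -0.25 (adjusted p = 0.0876), and the adipocyte markers fell in the same comparison (4 of 10).

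Slc25a46, an outer membrane protein that takes part in mitochondrial fission and lipid traffic, lay at 11.24, 11.31, 11.35 and 11.35 on chow, at 11.45, 11.50, 11.52 and 11.43 after 5 days and at 11.25, 11.34, 11.40 and 11.38 after 42 days. The 5-day arrays were above all others, by 0.16 ± 0.051 over chow (1.12-fold, adjusted p = 0.0752) and with -0.14 ± 0.051 on going to 42 days (0.0944). Its other probe set (mean 11.09) was 0.17 ± 0.053 above chow at 5 days (adjusted p over all probe sets 0.0782) and 0.14 ± 0.053 at 42 days (0.116). Between the diet groups that probe set differed by -0.031 ± 0.053 (0.721), so the drop by 42 days rests on the probe set used. Slc25a48, linked to choline import, was -0.18 ± 0.063 at 5 days (adjusted p = 0.111) and -0.0060 at 42 days (0.975). Slc25a47, a liver carrier, was -0.15 at 5 days (0.266) and 0.050 at 42 days (0.775). Slc25a34, Slc25a35, Slc25a53 and Slc25a54 lay between -0.14 and 0.14 in both diet comparisons, with adjusted p of 0.281 or more. At 42 days 5 of the 8 were higher and 3 lower than chow, the median was 0.013, and none had an unadjusted p under 0.05.

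Close relatives with like substrates were compared within each array, as the difference between their log2 signals, with the chow mean set to 0. This compares how 2 carriers moved, not their levels. Of 9 pairs, 1 separated a diet group from chow: Slc25a12 minus Slc25a13 lay at -0.11 to 0.05 on chow and at 0.09 to 0.31 after 5 days (mean 0.18 ± 0.10, SD, n = 4), and was back at -0.18 to 0.10 after 42 days. The mitoferrin difference, Slc25a28 minus Slc25a37, was -0.24 to -0.11 after 5 days and -0.04 to 0.07 after 42 days, without overlap, but each overlapped chow (-0.14 to 0.09). Slc25a33 minus Slc25a36 was 0.11 to 0.50 after 5 days and overlapped the chow range of -0.32 to 0.15. Slc25a4 minus Slc25a5, the translocase pair, shifted by -0.046 ± 0.11 and -0.062 ± 0.11 (SD, n = 4), within the chow spread. The Slc25a12 and Slc25a13 shift at 5 days was 0.070 after cyclic loess and -0.044 with the most variable probe sets, so it rests on the scaling and the probe sets read. Slc25a39 minus Slc25a40 was -0.20 ± 0.13 after 42 days, with overlap. No test was made of these differences.

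**Figure D3:**
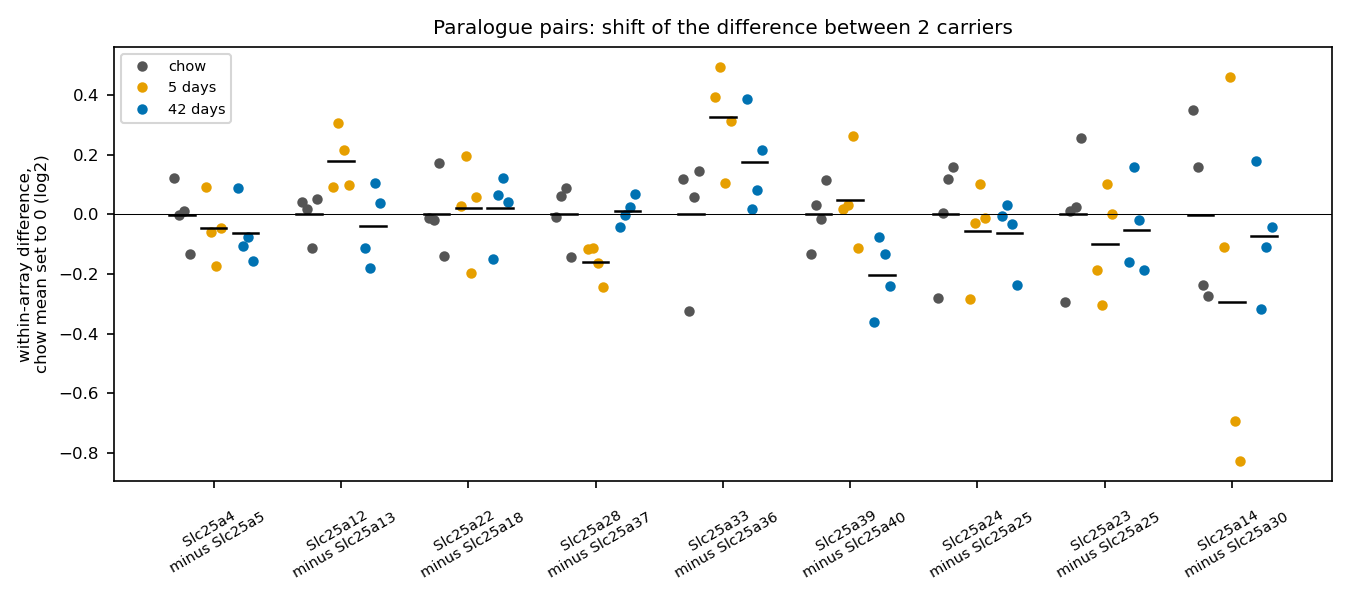
The within-array difference between 2 related carriers, on the log2 scale with the chow mean set to 0, is shown for 9 pairs, with 1 point an array and a bar at the group mean. Slc25a12 minus Slc25a13 is the pair in which the 5-day arrays (0.09 to 0.31) lie clear of the chow arrays (-0.11 to 0.05).

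The choice of probe set mattered for several members. Of the 42, 22 were read by more than 1 probe set, up to 8 for Slc25a5, and their 48 other probe sets went in the same direction as the one used in 22 cases at 5 days, 23 at 42 days and 28 between the diet groups. Over all 34945 probe sets tested together, 3.59% were called at 5 days, 10.6% at 42 days and 7.8% between the diet groups. Of the 48, 1 passed at 5 days (Slc25a10), 5 at 42 days and 5 between the diet groups, and at 42 days 3 of the 5 went against the probe set used. Slc25a36 was the plainest case: its dimmer probe set (mean 8.05) rose by 0.32 ± 0.060 at 42 days (adjusted p = 0.00448), while the one used (mean 10.40) was -0.26 ± 0.082 (0.0523) and the remaining one was -0.21 ± 0.095 (0.185). Slc25a24 rose by 0.33 ± 0.098 on its dimmer probe set (0.0448), against -0.099 ± 0.069 on the one used. Slc25a15, given above, was the other case.

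Slc25a25, a calcium-regulated ATP-Mg/phosphate carrier, fell by 0.53 ± 0.099 on an _x_at probe set, a name Affymetrix gives to sets whose probes can match other transcripts (adjusted p = 0.00383). The probe set used for it was -0.038 ± 0.097. Slc25a30 rose by 0.47 ± 0.13 on 1 of its dimmer probe sets (0.0266), and the one used was 0.071 ± 0.21. Between the diet groups the others that passed were of Slc25a10 (0.30), Slc25a12 (-0.20), Slc25a36 (0.23), Slc25a4 (-0.26) and Slc25a44 (-0.25), with adjusted p of 0.0182 to 0.0440. Which part of each transcript these probe sets read was not analysed here. Of the probe sets used, 7 are named _x_at or _s_at and may also read related sequences: those of Slc25a4, Slc25a5, Slc25a26, Slc25a29, Slc25a32, Slc25a39 and Slc25a47.

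**Figure D4:**
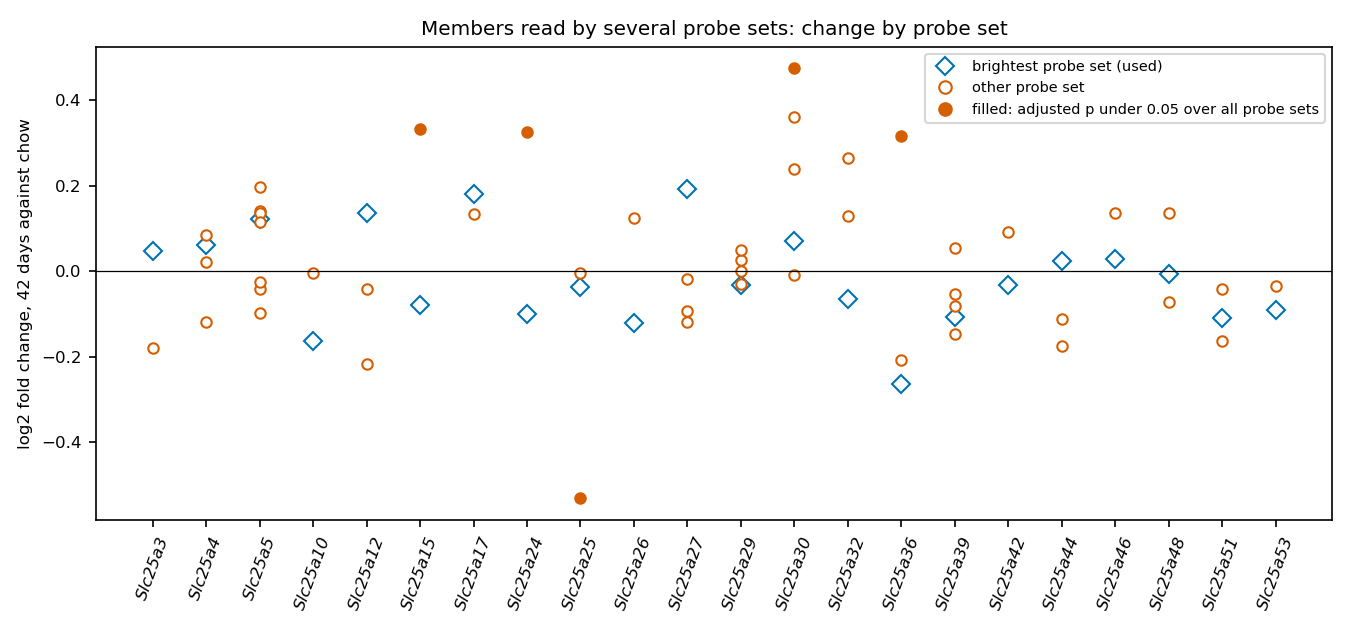
The log2 fold change at 42 days against chow is shown for each probe set of the 22 members read by more than 1, with the brightest as diamonds and the others as circles. Filled symbols passed over all probe sets; these are 5 dimmer probe sets, of Slc25a15, Slc25a24, Slc25a25, Slc25a30 and Slc25a36.

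Outside the rule, Slc25a1 gave the largest calls among the transport genes listed. Among 6 other SLC25 genes measured, the citrate carrier Slc25a1 fell by 1.38 ± 0.22 at 5 days (adjusted p = 0.0184) and by 1.26 at 42 days (0.00851), with chow arrays that varied by an SD of 0.64. Of the adipocyte markers 4 of 10 fell at 5 days beside it, and their part in that value was not tested. Mtch2, an outer membrane insertase of the family, rose by 0.21 ± 0.048 at 42 days (0.0263). Of 17 other mitochondrial transport genes, 1 rose and 1 fell at 5 days, namely Letm1, an inner membrane ion-exchange protein (0.28 ± 0.061, adjusted p = 0.0349), and Tspo, an outer membrane protein (-0.33 ± 0.072, 0.0349). At 42 days 1 rose, Abcb8, a mitochondrial ABC transporter (0.31 ± 0.070, adjusted p = 0.0245). Between the diet groups Abcb8 rose (0.26, adjusted p = 0.0381) and Mcu, the pore of the calcium uniporter, fell by 0.20 ± 0.050 (0.0304). The calls were 11.8% of the list at 5 days, 5.88% at 42 days and 11.8% between the diet groups. The shares of all genes were 3.8%, 5.56% and 8.52%. The list's median log2 difference was 0.0028 at 5 days and -0.032 at 42 days.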

How the data were processed

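Skeletal muscle RNA was measured on 12 Affymetrix arrays, 4 each from mice on chow, on high-fat diet for 5 days and on high-fat diet for 42 days. The deposited values are log2 signals, which the authors made by RMA, per the submitters' processing notes; probe mapping and version are not given in the sources used here. Genes were named through the platform annotation: 34945 probe sets with 1 symbol were kept, and 932 with several symbols and 9221 controls or unnamed ones were left out. No scaling or filter was applied. The probe set with the highest mean stood for each gene. A limma 3.58.1 model (R 4.3.3; 9 residual and 5.88 prior degrees of freedom) gave 3 two-sided contrasts and an F-test, Benjamini-Hochberg adjusted over 18193 genes at 0.05, and was tested on simulated data. The 42-day against 5-day contrast is the test of the difference between the diet times, and both contrasts against chow share the chow arrays. Members, classes, pairs and lists were chosen with earlier results of these data known; the named carriers follow a rule, in which all that passed and the carriers of ATP synthesis and of the malate-aspartate shuttle get values on every array; those of Slc25a10, Slc25a30, Slc25a36 and Slc25a46 were added after their values were seen. Alternatives changed the probe set, scaling, filter, model, covariates and arrays. Replicate numbers were not treated as pairs.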

Additional observations from a re-analysis of the deposited data

Results flagged for a closer look

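Within-group gaps were examined for 126 sets of 4 arrays (42 members in 3 groups), and 5 held an array far from the other 3; chance gives about 5% of such sets. Slc25a29 reached 9.97 in chow replicate 1, with the others at 9.84. Slc25a32 reached 7.485 in chow replicate 4, against 7.33 to 7.35 in the others, and was lowest, at 7.239, in 42-day replicate 1, where the nearest was 7.33. Slc25a15 reached 10.222 in 5-day replicate 3, against 10.02 to 10.04. Slc25a2 reached 6.40 in 42-day replicate 1, against 6.23 to 6.26.

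The 42-day and 5-day groups differed, by the test of that difference, for 4 members; feeding time and age cannot be told apart here. The log2 difference of 42 from 5 days was 0.259 for Slc25a13, -0.264 for Slc25a15, -0.319 for Slc25a33 and -0.364 for Slc25a37. For Slc25a15 the far array, 5-day replicate 3, is 1 of those without which the difference did not pass, and its other probe set went the opposite way (0.19).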

How the results depend on the processing

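Values here are counts of members that passed, or median log2 differences of a class. Percentages in brackets are the shares of all genes called under the same settings. None is given here for the F-test counts. At 5 days, where 1 passed, the count was 4 with probe sets averaged (3.83% of all genes) and 2 with arrays centred on their median (6.11%). Without the dimmest 40% of genes it was 2 (7.04%), among the 33 members tested there, with Slc25a13 among those left out. It was 2 with a trended and robust prior (4.79%) and 4 at an adjusted p under 0.1 (11.4%). It was 0 with the most variable probe set, quantile normalization, cyclic loess, every probe set tested, array weights, the 8 arrays compared and the adipocyte covariate (4.98%, 0.879%, 1.18%, 3.2%, 0.874%, 0.0385% and 0.242%). At 42 days, where 3 passed, it was 6 with the most variable probe set (13.9%) and 0 with the adipocyte covariate (1.05%). Between the diet groups, where 4 passed, it was 2 with averaged probe sets, quantile normalization and cyclic loess (2.91%, 1.97% and 1.87%), and 9 at 0.1 (20.2%). The F-test count of 6 became 3 with quantile normalization, 2 with the adipocyte covariate and 11 at 0.1. Leaving out 1 array in turn gave 2 to 7 by the F-test and 0 to 1 at 5 days (0.033% to 4.34%). It gave 0 to 3 at 42 days (1.25% to 5.93%) and 0 to 6 between the diet groups (0% to 10.8%). It gave 0 at 42 days against chow without chow replicate 3 or 42-day replicate 4 (1.25% and 1.64% of all genes called), and between the diet groups without 5-day replicate 2 or 42-day replicate 1 (16 and 0 of all genes called). In the last pair a member count of 0 says nothing about the members. Between the diet groups, the most variable probe set reversed Slc25a4 (-0.255) and Slc25a15 (0.19).

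Class medians moved in 23 of 357 comparisons. With the most variable probe set, that of the ADP, ATP and phosphate class at 42 days was -0.0657, that of amino acids between the diet groups 0.132, that of nucleotides and cofactors 0.12 at 5 days, 0.0683 at 42 days and 0.0281 between the diet groups, and that of unassigned members -0.0511 at 5 days. With averaged probe sets, amino acids between the diet groups gave -5e-05, nucleotides and cofactors 0.0155 at 42 days and -0.0586 between the diet groups, and unassigned members -0.0555 at 5 days. Centred arrays gave 0.0045 for amino acids at 5 days. Quantile normalization and cyclic loess gave 0.139 and 0.145 for dicarboxylates, -0.0303 and -0.0297 for nucleotides and cofactors and -0.174 and -0.172 for iron between the diet groups, and -0.0611 and -0.0569 for unassigned members at 5 days. Leaving out 1 array gave 0.0078 to 0.0644 for amino acids and -0.0332 to 0.17 for uncoupling protein-like members at 42 days. The cause of these shifts was not tested. Of 459 pair shifts, 434 stayed within the replicate spread.

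Same-number correlations exceeded 0.1 in 3 of 12 cases (range -0.176 to 0.221), and for 4 of 12 arrays the closest match carried the same number. Those 3 were the pairs of the replicate 1 arrays (0.208, 0.215 and 0.221), and no pair of the other replicate numbers exceeded 0.1. What the replicate 1 arrays share was not tested. With a replicate block the counts were 1, 4 and 4 in the 3 comparisons (4.84%, 5.78% and 9.77% of all genes called) and 7 by the F-test. Dim members, such as Slc25a2 and Slc25a31, lie near background and give weak evidence either way.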

Other observations

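Several members that did not pass did so under some alternatives. At 5 days, Slc25a11 did so with probe sets averaged (adjusted p = 0.0439), with centred arrays (0.0260), without the dimmest 40% of genes (0.0379) and with a trended and robust prior (0.0281). Slc25a11 has a single probe set, so averaging changed only the other genes in the fit. Slc25a46 did so with averaged probe sets (0.0410) and centred arrays (0.0359), and Slc25a10 with averaged probe sets (0.0347). Between the diet groups, Slc25a26 passed with centred arrays (0.0400), without the dimmest genes (0.0369), with a trended and robust prior (0.0456), with array weights (0.0417) and with only the 8 arrays compared (0.0480). None of these settings read its other probe set, which was -0.053 (adjusted p over all probe sets 0.662). Slc25a28 passed between the diet groups without the dimmest genes (0.0471), with array weights (0.0481) and with the 8 arrays (0.0374). Slc25a48 passed with a replicate block (0.0491). Slc25a22, further from the threshold (0.136), passed with quantile normalization (0.27, adjusted p = 0.0455) and cyclic loess (0.27, 0.0441), and Slc25a4 with its most variable probe set (-0.26, 0.0494). At 42 days against chow, Slc25a36 passed without the dimmest genes (0.0456), with a trended and robust prior (0.0418) and with a replicate block (0.0264), and with the most variable probe set Slc25a15 (0.33, 0.0124), Slc25a24 (0.33, 0.0412) and Slc25a25 (-0.53, 0.00326) passed. These are counts of settings and not further tests of the diet.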
